A study of Homo sapiens with 12 samples.

Results

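The genes described here encode the prefoldin-like module built around URI1 and the R2TP complex, which together form the chaperone assembly known as the PAQosome. They are URI1, UXT and PDRG1, POLR2E, and the R2TP subunits RPAP3, PIH1D1, RUVBL1 and RUVBL2. The rule for membership is the gene's name and Ensembl identifier and holds no measured value, but the set was proposed with earlier results of these data known. All 8 were found among the 58051 genes of the count tables and among the 27915 genes that passed the filter on low counts. Total RNA depleted of 18S ribosomal RNA was sequenced from HCT116, an established line of human colon carcinoma cells. The cells had received a small interfering RNA (siRNA), a double-stranded oligonucleotide that directs cleavage of matching messages, with the lipid reagent Oligofectamine. The siRNAs were siControl, siPFDN2 and siPFDN5, the last 2 against the prefoldin subunits PFDN2 and PFDN5. All 6 groups, controls included, carried an siRNA and spent 48 h without serum, beginning 24 h after transfection, and were collected before serum was given back or 90 min afterwards. Each group had 2 libraries, called replicate 1 and replicate 2, each target had 1 siRNA, and nothing in the labels says that replicates came from separate cultures, so p-values measure the spread between these libraries, which may be technical.

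R2TP is a cochaperone of HSP90 that helps to assemble large protein complexes, among them RNA polymerase II, box C/D small nucleolar ribonucleoproteins, the U5 small nuclear ribonucleoprotein and the PI3K-like kinases such as mTOR. RUVBL1 and RUVBL2 are AAA+ ATPases that form its ring and also serve in the INO80, SRCAP and TIP60 chromatin complexes, RPAP3 is the scaffold that tethers HSP90, and PIH1D1 is the adaptor that reads phosphorylated clients. URI1 and UXT are prefoldin subunits of the alpha class, PDRG1 is of the beta class, and PFDN2 and PFDN6 are shared between canonical prefoldin and the URI1 module, whereas PFDN5 belongs to canonical prefoldin. POLR2E (RPB5) is a subunit common to the 3 nuclear RNA polymerases and binds URI1.

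The siRNA sequences are shown because both knockdowns are read through them, with the sense strand 5′ to 3′ as the labels give it and capitals marking the 7 bases that pair with bases 2 to 8 of the guide, its seed.
siControl: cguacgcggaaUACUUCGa
siPFDN2: cagccuagugaUCGAUACa
siPFDN5: agagaagacagCUGAGGAu
The 19 bases of siPFDN2 were found whole in PFDN2 transcripts and those of siPFDN5 in PFDN5 transcripts of GENCODE release 29. Across all annotated transcripts of the 8 members the longest identical run was 6 to 8 bases for siPFDN2, 7 to 9 for siPFDN5 and 6 to 8 for siControl. The seed site of siPFDN5, CUGAGGA, occurred 1 time each in UXT-201 and RUVBL1-201, the leading transcripts of those genes by estimated count. It was absent from the leading transcripts of the other 6 members, and 37% of 19322 leading transcripts of tested genes held it. The seed site of siPFDN2 was in no leading transcript of a member.

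The 250 bases before the annotated start are shown for RUVBL2, RUVBL1, UXT and POLR2E, which, with PIH1D1, had the 5 largest serum responses under siPFDN5 described further on. They are from RefSeq on GRCh38.p14, read 5′ to 3′ along the gene, with capitals marking the letters CCAAT on either strand (the CCAAT box is bound by NF-Y) and CCGGAAG (the core bound by ETS factors), and no motif overlapped another. RUVBL1 and RUVBL2 have 2 windows each, and the more GC-rich is shown.
RUVBL2, plus strand, chr19:48993198-48993447: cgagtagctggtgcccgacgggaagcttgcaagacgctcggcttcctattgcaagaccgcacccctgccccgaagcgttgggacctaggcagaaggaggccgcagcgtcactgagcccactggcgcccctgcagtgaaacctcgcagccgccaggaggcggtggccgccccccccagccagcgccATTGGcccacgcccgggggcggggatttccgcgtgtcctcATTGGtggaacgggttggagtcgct
RUVBL1, minus strand, chr3:128123813-128124062: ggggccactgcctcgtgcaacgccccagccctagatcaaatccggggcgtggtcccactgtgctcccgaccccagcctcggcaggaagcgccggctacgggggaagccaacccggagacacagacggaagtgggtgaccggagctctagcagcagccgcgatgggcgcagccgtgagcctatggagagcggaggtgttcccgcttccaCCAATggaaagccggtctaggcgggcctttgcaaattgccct
UXT, minus strand, chrX:47659181-47659430: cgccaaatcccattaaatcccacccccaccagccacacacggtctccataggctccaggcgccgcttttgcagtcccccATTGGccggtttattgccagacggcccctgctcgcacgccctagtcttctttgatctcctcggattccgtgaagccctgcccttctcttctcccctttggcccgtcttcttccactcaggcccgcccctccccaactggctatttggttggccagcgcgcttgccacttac
POLR2E, minus strand, chr19:1095376-1095625: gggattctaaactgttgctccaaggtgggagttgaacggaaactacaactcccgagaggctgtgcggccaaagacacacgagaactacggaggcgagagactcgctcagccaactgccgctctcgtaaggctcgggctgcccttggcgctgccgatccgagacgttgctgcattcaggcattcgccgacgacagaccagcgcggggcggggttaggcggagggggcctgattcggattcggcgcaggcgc
RefSeq gave 10 such windows for 7 members, with PIH1D1 named only. CCAAT was in 6 of the 10 windows, against 32% of 35116 windows of all genes. These windows belong to 4 members (RUVBL1, RUVBL2, RPAP3 and UXT), as RUVBL1 and RUVBL2 count with 2 windows each. A share per gene was not computed over all genes. CCGGAAG was in 2 windows (PDRG1 and URI1), against 8.52%. POLR2E held neither. The median GC content was 59.2% over the 10 windows and 58% over all.

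Counts over whole gene bodies, introns included, came to between 59784425 and 136504590 per library. Replicate 2 of siPFDN2 before serum stood apart: across genes, the rank correlation (Spearman's rho) of deviation from the mean with transcript GC content was 0.688 there and -0.280 to 0.133 in the other 11 libraries. PFDN2, in CPM (the count scaled to the library total), stood at 7.55 and 8.49 in siPFDN2 before serum against 11.5 and 11.2 in siControl, and at 8.73 and 9.47 against 19.5 and 16.3 after it. Before serum PFDN5 stood at 41 and 44.2 CPM with siPFDN5 against 76.8 and 68.9 with siControl. The libraries labelled siPFDN5 after serum held 67.5 and 68.6 CPM of it against 67.9 and 74, so every direction drawn from those libraries carries that label. Of the colon epithelial markers 7 of 8 averaged at least 1 CPM (all but CDX1), with a summed level of 1970 to 3170 CPM, while fibroblast, leukocyte and endothelial markers summed to at most 15.9, 0.24 and 2.53 CPM.

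Scaled for transcript length, RUVBL2 was the most abundant of the 8 messages and PDRG1 the least. Estimated counts were divided by transcript length and scaled to the same total in every library, as TPM. On this scale the median over 12 libraries was 197 for RUVBL2 (range 176 to 318), 142 for RUVBL1 (124 to 157), 121 for UXT (81.8 to 147), 113 for POLR2E (93 to 187) and 97.9 for PIH1D1 (83.3 to 144). It was 83 for URI1 (54.9 to 91.5), 46.6 for RPAP3 (29.2 to 53.2) and 11 for PDRG1 (7.68 to 17.8). RUVBL2 ranked 1st in all 12 libraries, URI1 6th, RPAP3 7th and PDRG1 8th in all 12. RUVBL1 ranked 2nd in 10 libraries and 3rd in 2. The ranges of UXT, POLR2E and PIH1D1 overlapped, and their ranks moved between 2 and 5 from library to library, so their order was not beyond the spread.

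**Figure D1:**
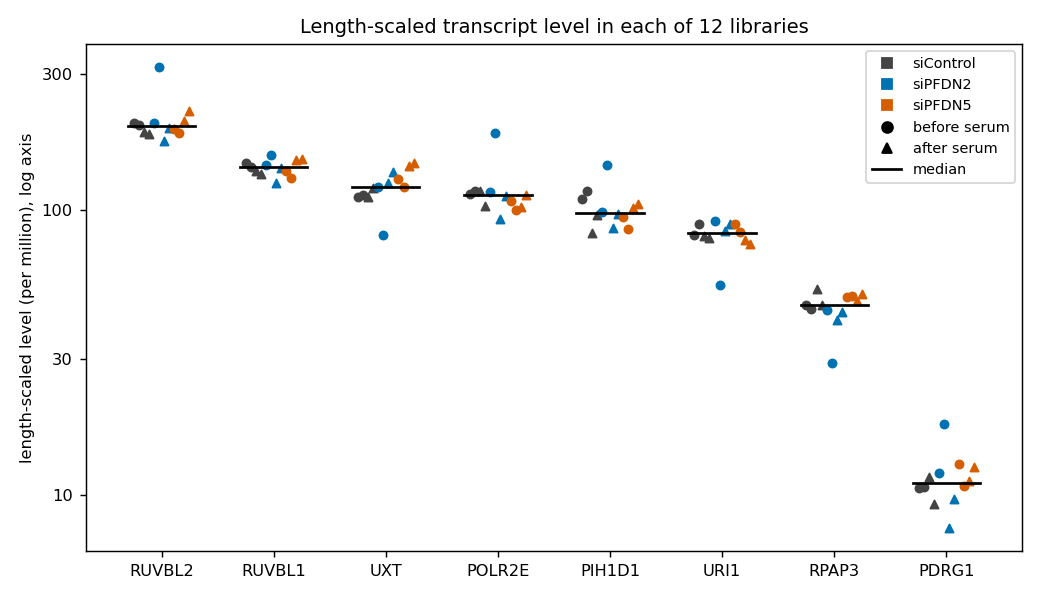
Length-scaled transcript level in TPM (log axis) of the 8 genes, ordered by median; each point is 1 of 12 libraries, coloured by siRNA, circles before and triangles after serum, and the bar is the median. RUVBL2 lies highest at a median of 197 and PDRG1 lowest at 11, and the stray points of siPFDN2 before serum lie up to 318 for RUVBL2 and down to 29.2 for RPAP3.

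URI1, the scaffold of the prefoldin-like module (ENSG00000105176, chr19:29923644-30016608, plus strand), held 65.4 and 71.6 CPM in siControl before serum and 69.4 and 69.3 after it. It held 74.5 and 42 CPM in siPFDN2 before serum, 79.3 and 77.3 after it, 76.6 and 71.9 in siPFDN5 before serum, and 72.9 and 69.6 in the libraries labelled siPFDN5 after serum. Apart from the 42 CPM of siPFDN2 before serum replicate 2, every library lay between 65.4 and 79.3 CPM. Less of a message in every cell and fewer cells holding it cannot be told apart in such bulk samples.

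UXT, the second alpha subunit (ENSG00000126756, chrX:47651798-47659161, minus strand), held 25.1 and 24.5 CPM in siControl before serum and 23.1 and 28.1 after it. In siPFDN2 it held 27.6 and 18.2 CPM before serum and 31.7 and 32.4 after it. In siPFDN5 it held 26.8 and 27 CPM before serum, and 36.7 and 37.3 in the libraries labelled siPFDN5 after serum. Those last 2 libraries were the highest of all 12, and did not overlap with any other group. UXT was not called for siPFDN5 against siControl after serum (edgeR adjusted p = 0.144), and the share of all genes with such a gap was not computed. The antisense gene UXT-AS1 shares 329 exonic bases with UXT (26.5% of its exons), counting used no strand, and UXT-AS1 stood at 11.2 and 12.1 CPM in the same 2 libraries against 7.25 and 8.64 in siControl after serum, so reads of the 2 genes cannot be told apart there and the part of UXT-AS1 in the UXT value was not tested.

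PDRG1, the small beta subunit (ENSG00000088356, chr20:31944342-31952092, minus strand), was low throughout, at 7.93 to 11.4 CPM in 10 libraries. It reached 13 CPM in siPFDN2 before serum replicate 2, against 9.32 in replicate 1, and stood at 7.32 and 8.26 CPM in siPFDN2 after serum. In siControl it held 8.32 and 7.93 CPM before serum and 8.5 and 8.12 after it. It held 9.78 and 8.8 CPM in siPFDN5 before serum and 10.5 and 11.4 in the libraries labelled siPFDN5 after serum. These last 2 lay above both siControl and both siPFDN2 libraries after serum.

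POLR2E (ENSG00000099817, chr19:1086579-1095380, minus strand) held 58.8 and 56.6 CPM in siControl before serum and 56.2 and 58 after it. It held 58.5 and 95.4 CPM in siPFDN2 before serum and 54.4 and 61.4 after it. In siPFDN5 it held 49.8 and 49.4 CPM before serum, the lowest group, and 63.9 and 68.1 in the libraries labelled siPFDN5 after serum. Without the 95.4 CPM of siPFDN2 before serum replicate 2, the 2 libraries labelled siPFDN5 after serum were the highest.

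RPAP3, the HSP90-tethering scaffold (ENSG00000005175, chr12:47661249-47706061, minus strand), held 35.8 and 35.1 CPM in siControl before serum and 35.3 and 35 after it. It held 33.7 and 17.8 CPM in siPFDN2 before serum and 34.3 and 33.7 after it. It held 38.5 and 40.6 CPM in siPFDN5 before serum and 40.4 and 40.3 in the libraries labelled siPFDN5 after serum. In CPM the 4 siPFDN5 libraries lay above the other 8 at both times, within a narrow band. On the length-scaled levels they ran from 48.1 to 50.7, while siControl after serum replicate 1 stood higher, at 53.2. RPAP3 was not called for siPFDN5 against siControl before or after serum (edgeR adjusted p = 0.844 and 0.648).

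PIH1D1, the adaptor (ENSG00000104872, chr19:49446298-49453497, minus strand), held 43.9 and 46.1 CPM in siControl before serum and 32 and 42 after it. It held 41.1 and 57.6 CPM in siPFDN2 before serum, and 40.6 and 42.6 after it. It held 36.1 and 35.3 CPM in siPFDN5 before serum and 49.8 and 50.1 in the libraries labelled siPFDN5 after serum. The 2 siPFDN5 groups did not overlap, and neither did siControl before and after serum. PIH1D1 was not called for serum in siPFDN5 or in siControl (edgeR adjusted p = 0.0989 and 0.626). The share of all genes with such gaps between groups was not computed.

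RUVBL1 (ENSG00000175792, chr3:128064778-128153914, minus strand) is read from exon counts here: the 3′ part of SEC61A1 lies within it on the opposite strand, and 53.3% to 65.3% of the gene-body counts lay outside the exons of RUVBL1. In exon CPM it held 141 and 134 in siControl before serum, 126 and 135 after it, 139 and 144 in siPFDN2 before serum, and 136 and 143 after it. In siPFDN5 it held 124 and 127 exon CPM before serum, and 158 and 157 in the libraries labelled siPFDN5 after serum. Those last 2 were the highest of the 12, and the lowest were both siPFDN5 libraries before serum and 1 siControl library after serum. In gene-body counts SEC61A1 itself stood at 174 and 182 CPM with siPFDN5 before serum and at 212 to 265 CPM elsewhere, and its part in the gene-body values of RUVBL1 was not tested. The exons of RUVBL1 also share 344 bases with SEC61A1 (5% of them) and 370 with EEFSEC (5.4%), both on the opposite strand. Counting used no strand, so exon counts can hold reads of both genes, and that part was not tested either.

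RUVBL2 (ENSG00000183207, chr19:48993448-49015995, plus strand) held 111 and 105 CPM in siControl before serum and 93.9 and 108 after it. It held 114 and 165 CPM in siPFDN2 before serum, and 112 and 118 after it. In siPFDN5 it held 100 and 102 CPM before serum, and 137 and 147 in the libraries labelled siPFDN5 after serum. The 165 CPM of siPFDN2 before serum replicate 2 was the highest of all, followed by the 2 libraries labelled siPFDN5 after serum.

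**Figure D2:**
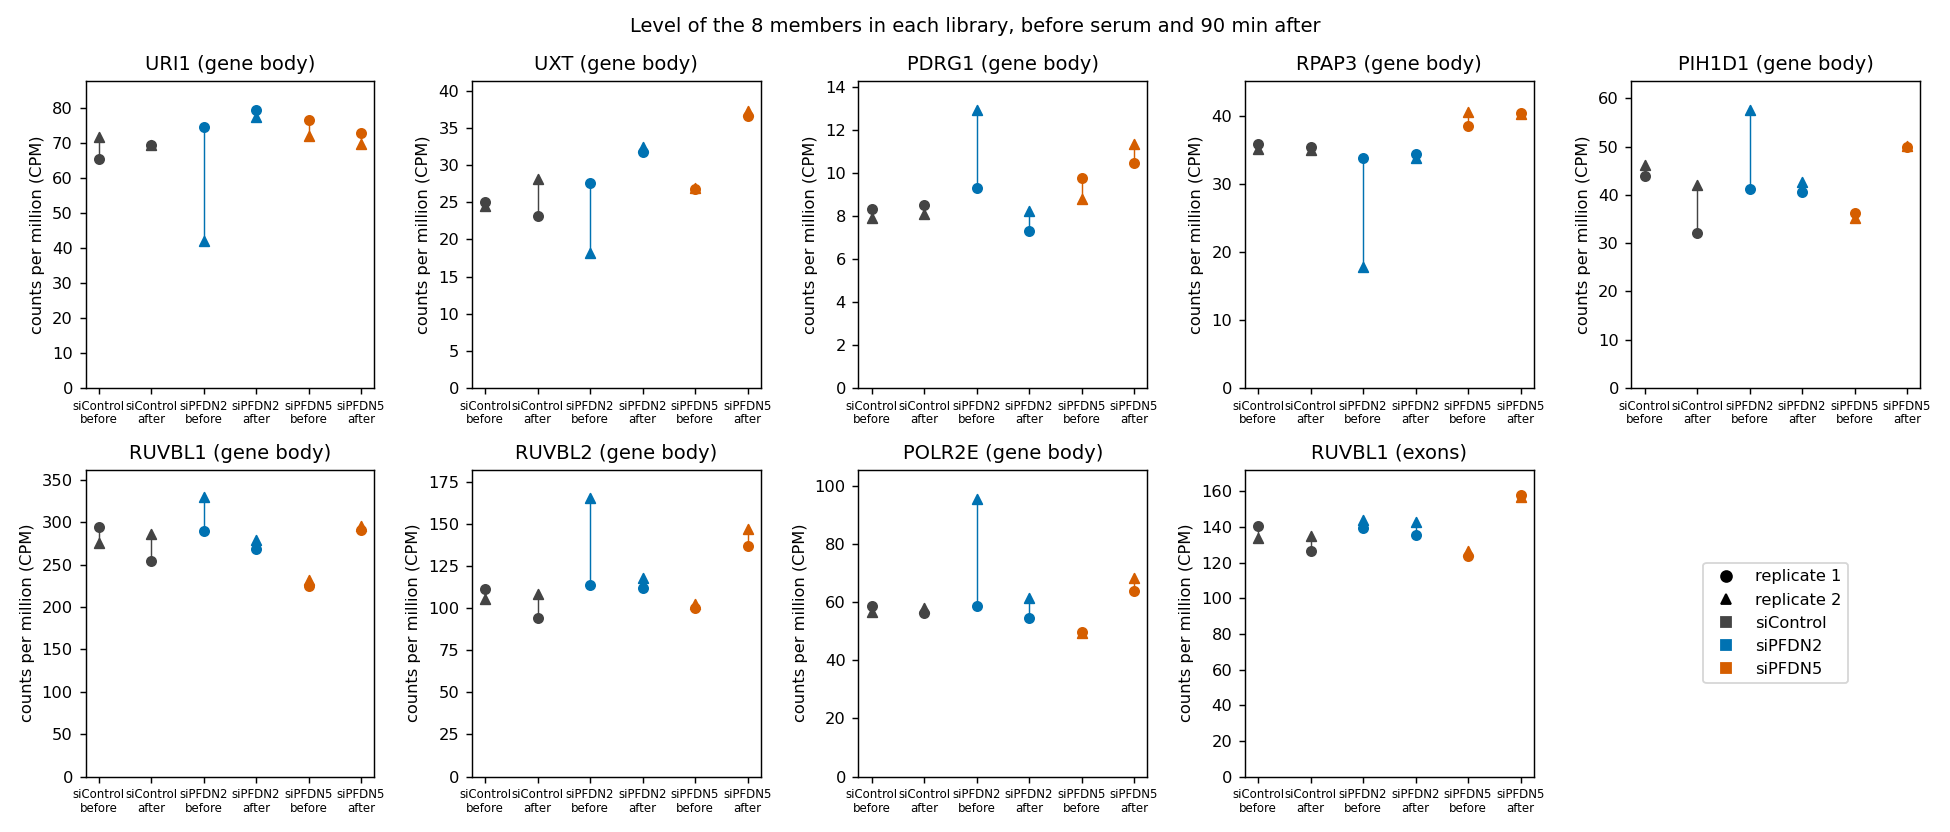
CPM over gene bodies for the 8 genes, and over exons for RUVBL1, in each of the 12 libraries; circles are replicate 1, triangles replicate 2, a line joins the 2 replicates and colours mark the siRNA. The replicates of siPFDN2 before serum lie far apart for 7 genes (42 against 74.5 CPM for URI1), and UXT is highest in the libraries labelled siPFDN5 after serum (36.7 and 37.3 CPM).

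None of the 8 messages passed the test after siPFDN2. Against siControl before serum, 0 of 8 members were called (edgeR's quasi-likelihood test on gene-body counts, adjusted p under 0.05 by Benjamini and Hochberg), where 0% of all tested genes were called, and the lowest adjusted p of a member was 0.442. The members' log2 fold changes ran from -0.46 to 0.46 with a median of 0.13 (all genes -0.01), 1 member (PDRG1) had an unadjusted p under 0.05 (11.3% of all genes did) and DESeq2 called 0. After serum 0 of 8 were called against a background of 0%, with log2 fold changes of -0.09 to 0.32, a median of 0.1 (all genes -0.05), 0 members at an unadjusted p under 0.05 and 0 called by DESeq2. The median SE of a member's log2 fold change was 0.18 in both comparisons, and changes well above that could be missed. PDRG1 was not called at 0.46 before serum. PFDN2, the target of the siRNA, was itself not called by edgeR, at -0.50 before serum and -0.98 after it. A count of 0 of 8 therefore does not show a lack of effect. Before serum and without replicate 2 of siPFDN2, the members' values ran from -0.13 to 0.20.

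PFDN5 siRNA before serum also left 0 of 8 members called, against a background of 0.00716%, with log2 fold changes of -0.33 to 0.19, a median of 0.01 (all genes 0.01) and 0 called by DESeq2. The 1 member at an unadjusted p under 0.05, where 12.3% of all genes were, was RUVBL1, at a log2 fold change of -0.32 ± 0.13 (SE) and an edgeR adjusted p of 0.363. In exon counts RUVBL1 stood at -0.13 ± 0.12 (SE, edgeR adjusted p = 0.802). Without siPFDN2 before serum replicate 2, RUVBL1 fell in gene-body counts, at -0.33 ± 0.08 (SE, edgeR adjusted p = 0.0344), as 1 of 8 members against 3.89% of all genes called lower. Directly compared before serum, siPFDN5 and siPFDN2 gave 0 of 8 called by edgeR against 0.0788% of all genes, while 5 members had an unadjusted p under 0.05, as did 29% of all genes. DESeq2 called 2 members (RUVBL1 and POLR2E) and 13.8% of all genes. Here POLR2E had a log2 fold change of -0.63 ± 0.20 (SE, edgeR adjusted p = 0.0807) and RPAP3 one of 0.62 ± 0.23 (SE, edgeR adjusted p = 0.114), and both values rest on the siPFDN2 group whose replicates diverged. Without its replicate 2 they were -0.24 and 0.23.

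The libraries labelled siPFDN5 after serum had positive log2 fold changes against siControl after serum for 8 of 8 members. Their median was 0.30 (range 0.04 to 0.53, all genes -0.04). With edgeR 0 of 8 were called, against 0.00358% of all genes, while 4 had an unadjusted p under 0.05, as did 21.6% of all genes. DESeq2 called 0 members and 6.85% of all genes. UXT had the largest value, 0.53 ± 0.19 (SE, edgeR adjusted p = 0.144), followed by RUVBL2 at 0.49 ± 0.17, PIH1D1 at 0.43 ± 0.18 and PDRG1 at 0.40 ± 0.18 (edgeR adjusted p = 0.145, 0.2 and 0.223). RUVBL1 enters here with its gene-body value, 0.12 ± 0.13 (SE, edgeR adjusted p = 0.628). From transcript estimates RUVBL1 stood at 0.37 ± 0.12 (SE, edgeR adjusted p = 0.157), also not called. Scaled by library size alone, 6 of 8 were positive, with a median of 0.15 while the median of all genes moved to -0.20. Against siPFDN2 after serum 0 of 8 were called, at a background of 0.0179%, 7 were positive, and PDRG1 alone had an unadjusted p under 0.05 (7.92% of all genes did), at 0.49 ± 0.18 (SE, edgeR adjusted p = 0.529), and DESeq2 called 0. Without siPFDN2 before serum replicate 2, PDRG1 was called there (0.49, edgeR adjusted p = 0.0227), against 3.32% of all genes called higher.

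In control cells none of the 8 messages passed the test for serum. In siControl 0 of 8 were called by edgeR, against 2.87% of all genes, and 0 by DESeq2, against 4.31%. There 0 members had an unadjusted p under 0.05, where 12.4% of all genes did. The log2 fold changes ran from -0.28 for PIH1D1 to 0.05, with a median of -0.01. In siPFDN2 0 of 8 were called by edgeR, against 3.26% of all genes, and 0 by DESeq2, against 11.2%. An unadjusted p under 0.05 was found for 2 members, as for 28% of all genes. These were PDRG1, at a log2 fold change of -0.52 ± 0.18 (SE, edgeR adjusted p = 0.111), and UXT, at 0.49 ± 0.19 (SE, edgeR adjusted p = 0.136). Without siPFDN2 before serum replicate 2, the response of the members in siPFDN2 ran from -0.26 to 0.22.

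From siPFDN5 before serum to the libraries so labelled after it, 7 of 8 members had positive log2 fold changes, with a median of 0.39 (all genes -0.03). With edgeR 0 of 8 were called against 12.2% of all genes, and 4 had an unadjusted p under 0.05, as did 30.7% of all genes. DESeq2 called 0 members and 16.1% of all genes. The values were 0.49 ± 0.17 for RUVBL2, 0.48 ± 0.18 for PIH1D1, 0.46 ± 0.19 for UXT, 0.41 ± 0.20 for POLR2E and 0.36 ± 0.13 for RUVBL1 (SE, edgeR adjusted p = 0.0859, 0.0989, 0.124, 0.182 and 0.0916). PDRG1 stood at 0.24 ± 0.18, RPAP3 at 0.03 ± 0.23 and URI1 at -0.06 ± 0.22. In exon counts 7 of 8 were positive with a median of 0.31 and RUVBL1 at 0.33 ± 0.12 (SE, edgeR adjusted p = 0.132), and by library size alone 6 of 8 were positive with a median of 0.24 and the median of all genes at -0.18.

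The serum response averaged over the 3 siRNAs had 0 of 8 members called by edgeR against 14.9% of all genes, while DESeq2 called UXT and 18.1% of all genes. UXT stood at a log2 fold change of 0.33 ± 0.11 (SE, edgeR adjusted p = 0.0614), and the other 7 members between -0.08 and 0.14. The difference of the serum response between siPFDN2 and siControl gave 0 of 8 called at a background of 0%, with 0 members at an unadjusted p under 0.05 and 0 called by DESeq2. That between the siPFDN5 libraries and siControl gave 0 of 8 at a background of 0%, with 3 members at an unadjusted p under 0.05, as were 20.9% of all genes. DESeq2 called 0 members and 6.2% of all genes. Those 3 were PIH1D1 at 0.77 ± 0.26, RUVBL2 at 0.59 ± 0.25 and RUVBL1 at 0.44 ± 0.19 on the log2 scale (SE, edgeR adjusted p = 0.129, 0.202 and 0.208). The comparisons of siPFDN5 after serum share libraries with one another, so their values are not separate evidence.

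For 7 of the 8 members the largest deviation of the 12 libraries lay in siPFDN2 before serum replicate 2, and for RUVBL1 in siPFDN5 before serum replicate 1 (-0.29). In the former library the deviation from the mean of 12 libraries, in log2 CPM, was -0.95 for RPAP3, -0.72 for URI1 and -0.60 for UXT, against 0.67 for POLR2E, 0.51 for RUVBL2, 0.50 for PDRG1, 0.44 for PIH1D1 and 0.26 for RUVBL1. RPAP3 and URI1 have the lowest GC content of the 8, at 35.7% and 41.8% of the longest transcript, and RUVBL2, POLR2E and PIH1D1 the highest, at 60.1%, 59.4% and 56.8%. UXT, PDRG1 and RUVBL1 lie between, at 50.2%, 51.1% and 51.4%. With the trend of that library against GC removed, RPAP3 stood at -0.19, POLR2E at 0.06, RUVBL2 at -0.14, PIH1D1 at -0.04 and RUVBL1 at 0.10, whereas UXT stood at -0.69, PDRG1 at 0.37 and URI1 at -0.27.

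**Figure D3:**
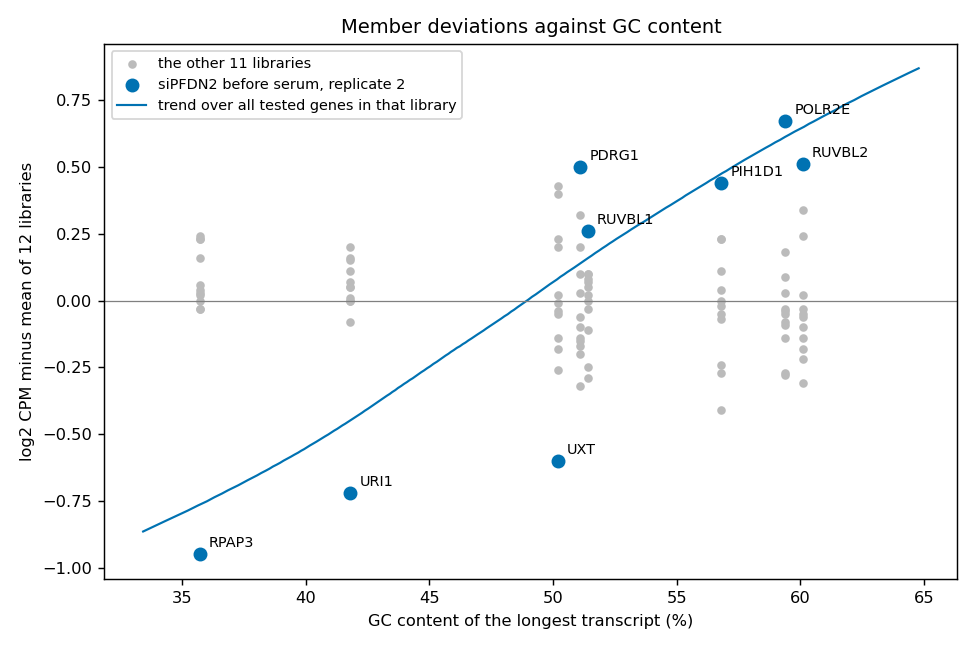
Deviation of each of the 8 genes from its mean over 12 libraries (log2 CPM) against the GC content of its longest transcript (%); blue points are siPFDN2 before serum replicate 2, grey points the other 11 libraries, and the line is the trend of all tested genes in the blue library. POLR2E (0.67) and RPAP3 (-0.95) lie along the trend and UXT (-0.60) lies well below it.

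With the GC trend of every library removed, some members were called, all higher. In the siPFDN5 serum response 4 of 8 passed, against 16.4% of all genes called higher: RUVBL2 at 0.48 ± 0.09, PIH1D1 at 0.48 ± 0.11, POLR2E at 0.40 ± 0.09 and RUVBL1 at 0.38 ± 0.10 (SE, edgeR adjusted p = 0.00464, 0.0122, 0.00761 and 0.0178). In the libraries labelled siPFDN5 against siControl after serum 3 of 8 passed, against 7.9% of all genes: RUVBL2, PIH1D1 and PDRG1 (0.52, 0.47 and 0.45 on the log2 scale). The averaged serum response had 3 of 8, against 15.4%, namely UXT at 0.35, RUVBL2 at 0.20 and POLR2E at 0.16. With the trend kept RUVBL2 and POLR2E stood at 0.04 and 0.00, and averaged over siControl and siPFDN2 alone, an alternative chosen after seeing the data, they stood at -0.19 and -0.21. The difference of serum responses between siPFDN5 and siControl had 2 of 8, against 4.03%, namely PIH1D1 at 0.74 and RUVBL2 at 0.52. Adding the replicate number as a block left 0 members called in that difference, with 0.00358% of all genes called. The fold changes were near those with the trend kept for the siPFDN5 comparisons, and the median SE was 0.11 in place of 0.18.

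Gene-body counts were also used, for RUVBL1 too, when siPFDN2 before serum replicate 2 was left out. Leaving it out bears on siPFDN5 against siControl only through the filter, the scaling and the shared estimate of spread. The siPFDN5 serum response then had 5 of 8 members called higher against 20.1% of all genes, with RUVBL2 at 0.50 ± 0.09 (SE, edgeR adjusted p = 0.000791), PIH1D1 at 0.49, UXT at 0.47, POLR2E at 0.42 and RUVBL1 at 0.37. In the libraries labelled siPFDN5 against siControl after serum 4 of 8 were called higher (UXT, RUVBL2, PIH1D1 and PDRG1) against 13.8%. The difference of serum responses had 5 of 8 called higher (PIH1D1, RUVBL2, RUVBL1, POLR2E and UXT) against 12.2%, and the averaged response had 1 (UXT at 0.24) against 14.9%. Against the fit of all 12 libraries these log2 fold changes, other than the averaged one, moved by at most 0.01. Leaving out replicate 1 of that group in place of replicate 2 also gave 5, 4 and 5 members called in these 3 siPFDN5 comparisons, where 36%, 23.6% and 21.5% of all genes were called in either direction.

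**Figure D4:**
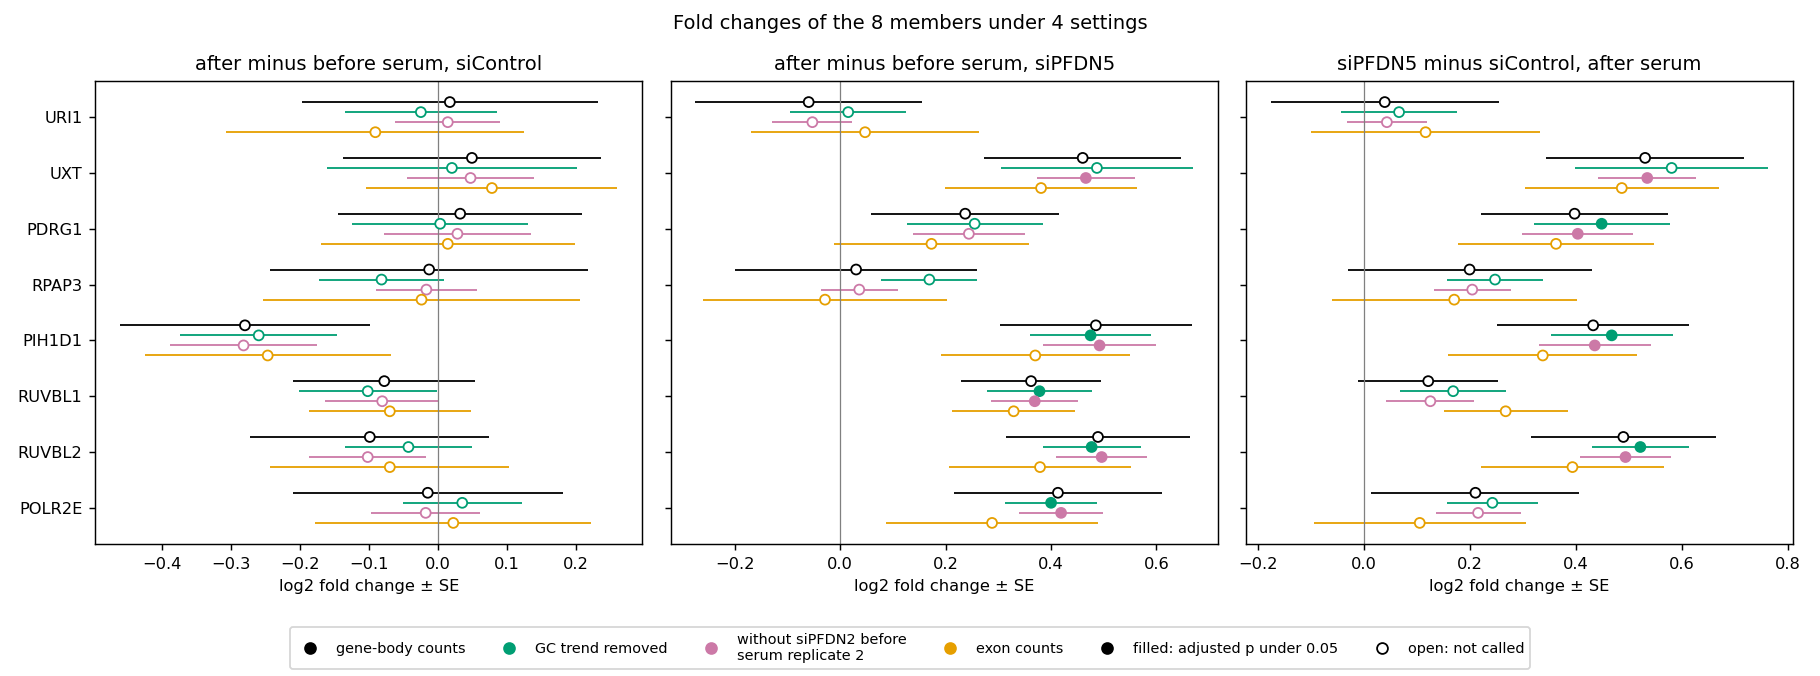
Log2 fold change ± SE of the 8 genes for serum in siControl, for serum in siPFDN5 and for the libraries labelled siPFDN5 against siControl after serum, under 4 settings given by colour; filled points passed an edgeR adjusted p under 0.05. In siPFDN5 the RUVBL2 points lie between 0.38 and 0.50 under all 4 settings, while in siControl every point is open.

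The share of a gene's counts that lay outside its exons is called intron share here. In the serum response averaged over the 3 siRNAs it was called lower for RUVBL2 and UXT, near the rate over all genes. RUVBL2 had intron shares of 1.88% and 1.65% in siControl before serum and 2.02% and 1.34% after it, 2.29% and 2.54% in siPFDN2 before serum and 1.67% and 1.39% after it, and 2.18% and 1.68% in siPFDN5 before serum and 0.73% in both libraries labelled siPFDN5 after serum. UXT ran from 5.98% to 9.88% before serum, and had 8.26% and 6.15% in siControl, 6.42% and 5.17% in siPFDN2 and 2.53% and 3.17% in the libraries labelled siPFDN5 after serum. For both genes those last 2 libraries were the lowest of the 12, and the siControl groups overlapped. Averaged, the log2 change of the intron to exon ratio was -0.73 ± 0.15 for RUVBL2 and -0.58 ± 0.16 for UXT (SE, edgeR adjusted p = 0.00711 and 0.0234). That is 2 of 8 members called lower, near the 25.3% of 14423 genes called lower. The median change was -0.40 over the members and -0.29 over all genes. Over all genes the intron share was 22.8% and 25.9% in siPFDN5 before serum and 17.2% and 14.8% after it. With the other siRNAs it ran from 15% to 17.3% before serum and from 16.2% to 20.9% after it. The part of these library-wide values in those of RUVBL2 and UXT was not tested. Averaged over siControl and siPFDN2 alone, an alternative chosen after seeing the data, 0 of 8 were called by edgeR, with RUVBL2 at -0.39 ± 0.19 (adjusted p = 0.256) and UXT at -0.29 ± 0.20 (adjusted p = 0.435). RUVBL2 was called whichever single library was left out, while UXT lost its call without any of 6 of them (siControl before serum replicate 1, siPFDN2 before serum replicate 2, siPFDN2 after serum replicate 2, either siPFDN5 library before serum and siPFDN5 after serum replicate 1), with edgeR adjusted p of 0.053 to 0.0791.

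No member passed the test of intron share for a knockdown before serum: 0 of 8 were called for siPFDN2 at a background of 0% and 0 of 8 for siPFDN5 at a background of 0% (edgeR). For siPFDN2 0 members, and for siPFDN5 the 2 members URI1 and POLR2E, had an unadjusted p under 0.05. The share of all genes at that unadjusted threshold was not computed for the intron share, so these counts cannot be set against it. URI1 had shares of 24.5% and 19.6% in siPFDN5 before serum against 10.1% and 13% in siControl, a log2 change of 1.12 ± 0.40 (SE, edgeR adjusted p = 0.413). The 2 groups of URI1 did not overlap, but 1 siControl library after serum reached 27.2% with 11.9% in its replicate, and leaving out either of those 2 libraries made URI1 the 1 member called (10.1% of all genes were called each time, against 0% with all libraries). Over all genes the intron share was 22.8% and 25.9% in siPFDN5 before serum and 15% and 17.3% in siControl before serum, and the part of that library-wide difference in the URI1 value was not tested. POLR2E had 0.74% and 0.9% against 1.85% and 1.19%, a log2 change of -0.88 ± 0.36 (edgeR adjusted p = 0.413).

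**Figure D5:**
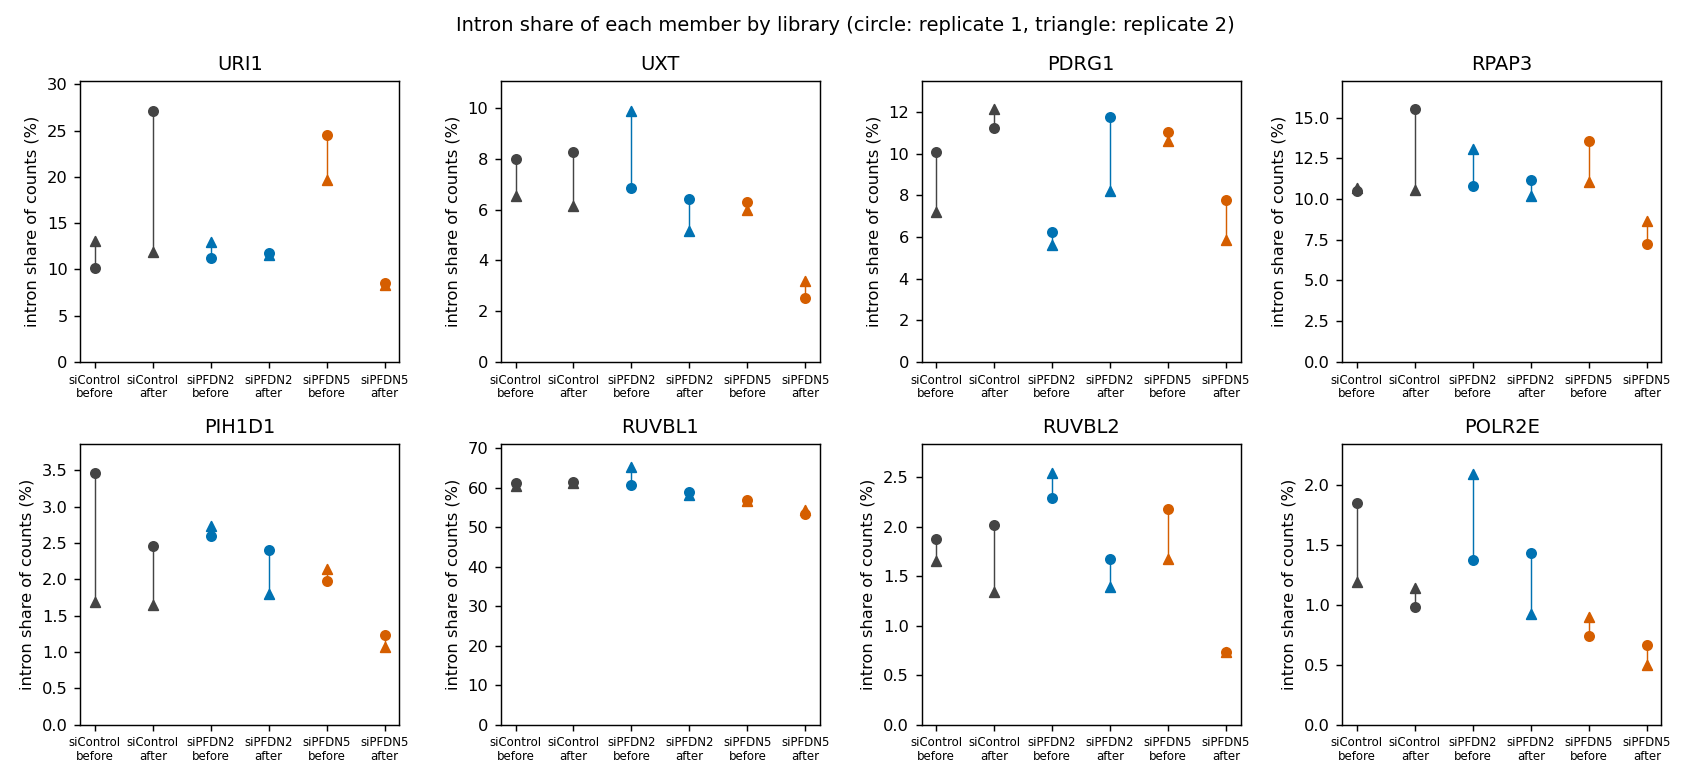
Intron share of the counts (%) of the 8 genes in each of the 12 libraries; circles are replicate 1, triangles replicate 2, a line joins the replicates and colours mark the siRNA as in the plot of CPM. RUVBL2 and UXT are lowest in the libraries labelled siPFDN5 after serum (0.73% in both and 2.53% and 3.17%), and RUVBL1 lies at 53.3% or more throughout.

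Transcript estimates put most of the signal of several members on 1 isoform. PDRG1 has 1 annotated transcript, and RUVBL1-201 held 95.8%, UXT-201 92.4% and PIH1D1-201 84.1% of the gene's estimated counts on average over 12 libraries. RPAP3 was spread over RPAP3-203 (39.6%), RPAP3-202 (31%) and RPAP3-201 (21.9%). For URI1, RUVBL2 and POLR2E the leading transcripts carry the GENCODE release 29 annotation of nonsense-mediated decay: URI1-206 held 54.8%, the first and second transcripts of RUVBL2 held 48% and 39.4%, and POLR2E-201 held 46.8%. The coding URI1-201 held 26.8% on average, with 35.6% in siPFDN2 before serum replicate 2. RPAP3-202 held 39.3% and 35.7% of RPAP3 in siPFDN5 before serum against 28.8% and 28.2% in siControl before serum, with no overlap between these groups and no test made. It is 1 of many transcripts and pairs of groups, and how often such a gap occurs among them was not computed.

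Of the other PAQosome subunits in the table, PFDN6 and WDR92 were not called in any of the 12 comparisons by edgeR (PFDN6 was with the GC trend removed, at 0.40 in siPFDN5 against siControl after serum), and PFDN2 was called in siPFDN5 against siPFDN2 at both times (1.42 and 1.51) and in the averaged serum response (0.37 ± 0.09, SE, adjusted p = 0.0233). With the GC trend removed PFDN2 was also called higher in siPFDN5 against siControl before serum (0.94, edgeR adjusted p = 0.0115) and after it (0.57, edgeR adjusted p = 0.0161), and for serum in siControl (0.64, edgeR adjusted p = 0.00582). Genes whose products R2TP helps to assemble were taken as lists, and their counts stand beside 14.9% of all genes called in the averaged response and 12.2% in siPFDN5. In the averaged serum response 4 of 13 small nucleolar ribonucleoprotein genes were called higher and 0 lower, with a list median of 0.23 against -0.03 for all genes: NOP58, a core protein of box C/D particles, at 0.45 ± 0.12, GAR1 of box H/ACA particles at 0.42 ± 0.09, and DKC1, the pseudouridine synthase, at 0.30 ± 0.07, led by size. In siPFDN5 5 of 13 were called higher, with a list median of 0.47 and NOP10 at 0.76 ± 0.19, NHP2 at 0.68 ± 0.14 and SNU13 at 0.64 ± 0.14. Of 15 genes for RNA polymerase II subunits and assembly factors, 3 were called higher and 0 lower in siPFDN5 (POLR2G at 0.62, POLR2C at 0.61 and POLR2L at 0.60), with a list median of 0.44. In the averaged response RPAP1, a polymerase II assembly factor, was the 1 called and was lower (-0.58). The 9 PI3K-like kinases and their TTT cofactors had list medians of -0.32 in siPFDN5 and -0.15 averaged, and 0 of 9 were called by edgeR in siPFDN5, with 4 at an unadjusted p under 0.05 and 2 called by DESeq2, and 0 of 9 in the averaged response, with 3 and 2. With the GC trend removed, where 16.4% of all genes were called higher and 13% lower in siPFDN5, 0 of these 9 were called higher and 5 lower (TRRAP at -0.72, PRKDC at -0.68 and SMG1 at -0.55 the largest). In the same setting 8 of 15 polymerase genes were called higher and 2 lower, POLR2A at -0.64 among them, and 9 of 13 nucleolar genes were called higher and 0 lower. In the averaged response 3 of 24 INO80, SRCAP and TIP60 genes were called higher and 2 lower, the largest being BRD8 at -0.69, YEATS4 at 0.54 and INO80C at 0.44, and 1 of 7 U5 genes (ECD, 0.32) was called higher.

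The patterns of the members over the 12 libraries were compared by Pearson's r of log2 CPM, given as a description because all libraries share the GC trend and the groups. The pair of members with the highest r was PIH1D1 and RUVBL2 (0.906), and the lowest was URI1 with POLR2E (-0.847). Without siPFDN2 before serum replicate 2 these were 0.855 and -0.266, and URI1 with RPAP3 moved from 0.874 to -0.203. With the GC trend removed the highest pair was UXT with RUVBL2 (0.848) and the lowest URI1 with PDRG1 (-0.437). Among 12113 genes of mean log2 CPM of at least 3, those most like each member were CARNMT1 and C9orf41-AS1 for URI1 (0.994 and 0.991), PIN4 and RPS4X for UXT (0.989 and 0.988), BAX and PTPN6 for PDRG1 (0.960 and 0.951), and GNPTAB and SH3GLB1 for RPAP3 (0.992 and 0.988). They were TALDO1 and CD2BP2 for PIH1D1 (0.986 and 0.977), SLC38A5 and CHADL for RUVBL1 (0.981 and 0.979), MXD3 and CDC37 for RUVBL2 (0.991 and 0.985), and BCAT2 and PTPA for POLR2E (0.984 and 0.983). With the GC trend removed other genes led for every member, such as RPL21P16 for UXT (0.992), MRPS15 for RUVBL2 (0.990) and VPS33A for RUVBL1 (0.987).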

How the data were processed

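The authors deposited fragment counts per gene over gene bodies and over exons, made with featureCounts 1.5.2 on Ensembl release 87 of GRCh38 with both ends mapped, overlapping genes counted each and no strand option, per the file headers. HISAT2, kallisto 0.43 and GRCh38.p7 are named in the submitters' processing notes, with no role given. The deposited files per sample hold estimated counts per transcript, which were summed per gene and rounded for an alternative fit and divided by transcript length for levels. Each count table also holds 6 columns that match no sample, which were not used.

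Gene-body counts were fitted with edgeR 4.0.16 in R 4.3.3 (filterByExpr, TMM, glmQLFit robust, 6 group means, 12 libraries). Benjamini-Hochberg adjustment covered all 27915 tested genes in each of 12 comparisons, two-sided, with a threshold of 0.05, and SE values come from the fold change and the F statistic. CPM are counts scaled to the TMM-adjusted library total, with a prior count of 2 on the log2 scale. GC trends were lowess fits (span 0.3, 3 iterations) added to the offset. Intron counts are gene-body minus exon counts, tested by the interaction of group with count type, blocking on library, where both averaged at least 20. Alternatives were DESeq2 1.42.0, library size only, no filter, exon counts, transcript estimates, GC trends, a replicate block and leaving out each library. The gene fit and intron test were tested on simulated data. The GC correction was run on the same kind of data, which held no GC trend, so its removal of a trend was not tested. The lowest gene-body count of a member in a library was 442 (PDRG1). Gene names and transcripts follow GENCODE release 29. The 8 members were always named, the called genes of each list up to 3 by size of change, and for each member the 2 genes most like it. The members, lists and tests were chosen with earlier results of these data known.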

Additional observations from a re-analysis of the deposited data

How the results depend on the processing

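The number of the 8 members called was 0 in all 12 comparisons with the edgeR fit of gene-body counts, and remained 0 with exon counts, transcript estimates and the replicate block. Replicate numbers gave no uniform pairing: of 15 pairs of groups 4 had a correlation of deviations above 0.1 and 7 below -0.1 (from -0.322 to 0.592). These mixed values do not decide whether some samples were paired. The block left 0 of 8 called, as did the fit lacking it, so that count does not bear on pairing. With the GC trend removed the count was 4 for the siPFDN5 serum response and 3 for the averaged response. It was 3 for siPFDN5 against siControl after serum and 2 for the siPFDN5 minus siControl difference. Of all genes 29.3%, 28.4%, 13.5% and 8.69% were called in these. With the replicate block and the GC trend removed it was 4, 3, 2 and 0, beside 26.5%, 26%, 9.46% and 0.00358% of all genes. With exon counts and the GC trend removed, chosen after seeing the data, the first 3 of these counts were 4, 3 and 3. They stand beside 22.1%, 28% and 13.3% of all genes. For serum in siPFDN2 that setting called 1 member (PDRG1), beside 9.08% of all genes. DESeq2 called 1 (UXT) in the averaged response and 2 for siPFDN5 against siPFDN2 before serum (18.1% and 13.8% of all genes), no filter called 1 and 4 there (13.9% and 11.5%), and library size alone called 1 (PDRG1) for serum in siPFDN2 (12.2%).

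Leaving out each library in turn, members called ran from 0 to 7 (siPFDN2 against siControl before serum), 0 to 1 (siPFDN5 against siControl before), 0 to 4 (siPFDN5 against siControl after), 0 to 8 (siPFDN5 against siPFDN2 before), 0 to 1 (the same after), 0 to 8 (serum in siPFDN2), 0 to 5 (serum in siPFDN5), 0 to 3 (averaged serum), 0 to 6 (difference siPFDN2 minus siControl) and 0 to 5 (difference siPFDN5 minus siControl). The highest of these came without replicate 1 of siPFDN2 before serum, shared with replicate 2 for the siPFDN5 comparisons other than that with siPFDN2 before serum. Without replicate 1 of that group its GC-rich replicate 2 stands alone for it, assumed to vary like the other groups, and the counts of 7, 8, 8 and 6 stand beside 41.8%, 47.9%, 48.6% and 37.7% of all genes called. The number of members with a changed intron share in the averaged response moved with the library left out, as did the share of all genes called. It was 0 in the average over siControl and siPFDN2 only.

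Among 33 values of single members, 15 of 649 alternatives turned the direction, for RUVBL2 and POLR2E, and the cause was not tested. RUVBL2 in the averaged response (0.04) was -0.11 by library size, -0.19 over siControl and siPFDN2 only, and -0.04 to 0.14 without single libraries (-0.01 among them). RUVBL2 in siPFDN5 against siPFDN2 before serum (-0.46) was 0.01 in exon counts with the GC trend removed. POLR2E in the averaged response (0.00) was 0.00 in transcript estimates, 0.16 with the GC trend removed, 0.16 with the block as well, 0.13 in exon counts with the trend removed, and -0.10 to 0.13 without single libraries (0.01, 0.02 and 0.03 among them).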
